A study of Vigna unguiculata with 30 samples.

Results

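The gene models described here are those cowpea gene models, located on the 11 chromosomes, whose exon field in the deposited count table lists 30 or more exon entries and whose mean over the 30 libraries reached at least 1 CPM (the usual measure of a gene's count relative to the total of its library). They number 2259 of 31948 gene models in the table, and of 18596 chromosomal gene models with a mean of at least 1 CPM. Their label speaks of 30 or more exons, and the data go against it for most of them: the field repeats an exon once for each transcript that uses it. Overlapping entries were joined, so that each stretch of exon counted once (a merged exon). By this count, 110 of the 2259 (4.87%) had 30 or more exons. Joining can fuse exons that are separate in some transcripts, so merged exons can undercount the exons of a gene model. Counted as entries that do not overlap one another, 115 had 30 or more. The 2259 are therefore called gene models with 30 or more exon entries, and the 110 are described separately throughout.

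The study sequenced leaf polyA RNA of cowpea (Vigna unguiculata), a grain legume, from line IT97K-499-35 grown in the ground of a greenhouse. Leaves came from the top, middle or bottom of the canopy at stage R3, which was 6.5 weeks after planting, and from the same 3 positions at stage R1, which was 5.5 weeks after planting. R1 and R3 are stages of reproductive growth in the usual legume scale. There were 5 libraries in each of the 6 groups (top R3, middle R3, bottom R3, top R1, middle R1, bottom R1), all of the same genotype and with no treatment. The labels call the replicates biological but do not say that they came from separate plants, so the p-values measure the spread between these libraries.

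In plants as in animals, a gene is transcribed whole, and the spliceosome, a large RNA and protein machine, cuts out the introns and joins the exons. Choosing other splice sites, or keeping an intron, lets 1 gene give several transcripts, and in plants kept introns are a common form. A long list of exon entries can therefore come from a gene built of many small exons or from a compact gene annotated with many transcripts. Genes with very many exons are usually long and often encode large proteins. The files give gene identifiers and exon positions but no gene names or functions, so no role can be given to any gene model named below.

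Both kinds of gene structure were present. The 2259 gene models held 150970 exon entries, of which 43240 were distinct, and joining overlaps left 32097 merged exons. The median gene model had 48 entries, 17 distinct entries and 13 merged exons, against 6 entries, 5 distinct entries and 4 merged exons in the 16337 other chromosomal gene models with at least 1 CPM. Of the 2259, 676 (29.9%) had fewer than 10 merged exons, 1165 (51.6%) had 10 to 19 and 308 (13.6%) had 20 to 29. In only 42 was every entry an exon of its own, and in the other 2217 (98.1%) at least 2 entries lay over each other. At the extreme, 2 gene models had 1 merged exon: Vigun03g192600 with 32 entries over 7250 bases, and Vigun09g167500 with 35 entries over 6200 bases. Even so, each of the 2259 held at least 4 entries that did not overlap one another.

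**Figure D1:**
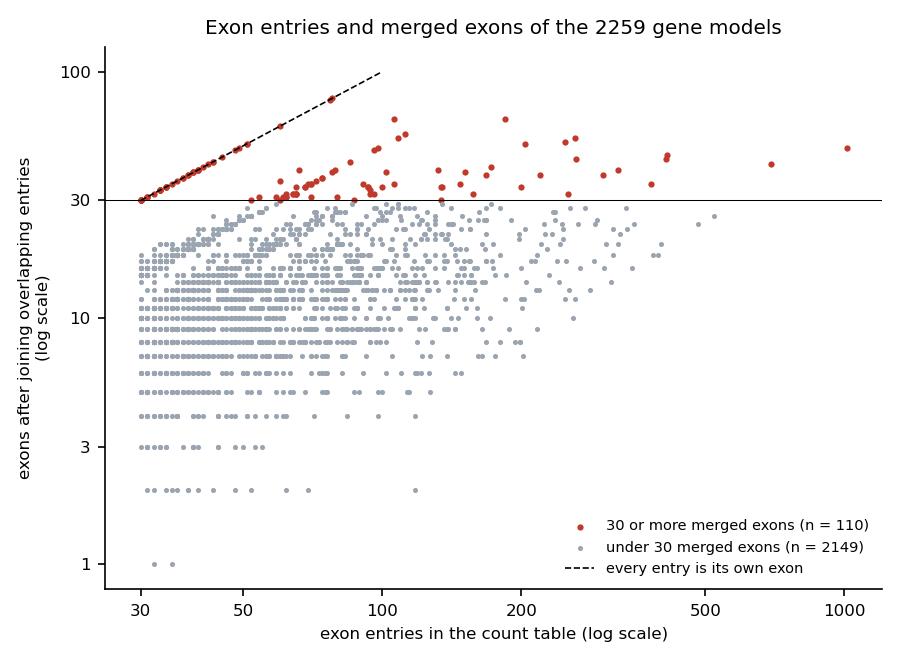
Exon entries (x axis, log scale) against merged exons (y axis, log scale) for each of the 2259 gene models, with the 110 of 30 or more merged exons in red and the other 2149 in grey. The dashed line marks gene models in which every entry is an exon of its own; most points lie far below it, and Vigun05g166500 lies farthest right with 1012 entries and 49 merged exons.

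The 110 were large genes. Their median span from the first to the last exon was 22200 bases, against 7620 bases for all 2259 and 3550 bases for the 16337 others. Their exons together came to a median of 5920 bases (3110 for all 2259, 1860 for the others), while the median exon was short at 116 bases (135 and 292). Their typical intron was no longer than elsewhere, with a median of 161 bases (193 and 248), but their longest intron had a median of 2770 bases (1290 and 882). These sizes follow in part from the rule itself, since more exons take more sequence.

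The gene models with the most merged exons were Vigun09g086400 with 78, on chromosome 9 from 11347842 to 11425370 on the minus strand, Vigun10g168200 with 77, on chromosome 10 from 38678910 to 38729594 on the minus strand, and Vigun02g159400 with 64, on chromosome 2 from 30497318 to 30550211 on the minus strand. Vigun03g409600, on chromosome 3 from 61675215 to 61750241 on the plus strand, also had 64. In Vigun09g086400 and Vigun10g168200 every entry was an exon of its own. Vigun05g166500, on chromosome 5 from 27685102 to 27730010 on the plus strand, listed the most entries, 1012, over 49 merged exons, and up to 21 entries lay over the same base. All coordinates are those of the deposited table; the sources used here do not give its genome build.

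**Figure D2:**
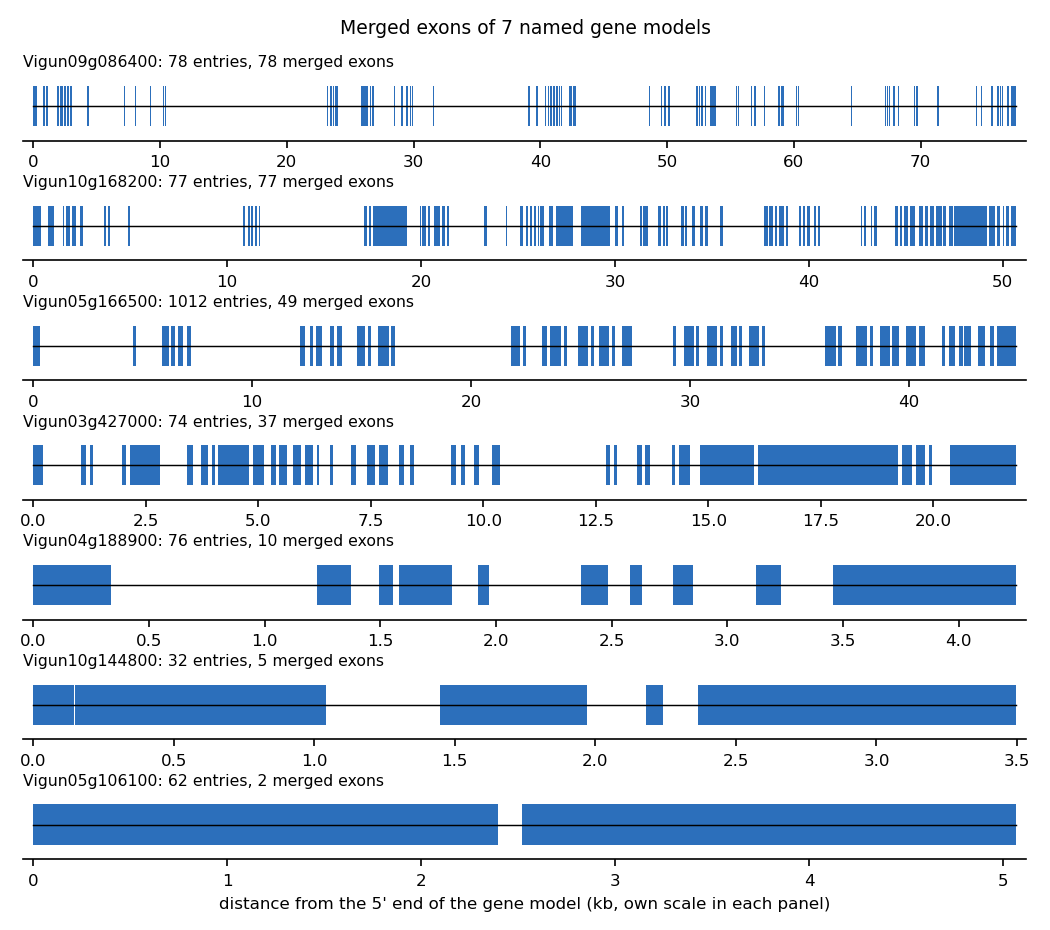
Merged exons (boxes) of 7 gene models along the distance from their 5′ end in kb, each on its own scale. Vigun09g086400 and Vigun10g168200 show 78 and 77 exons spread over the whole gene. The 62 entries of Vigun05g106100 join into 2 long merged exons, although up to 9 of them do not overlap one another.

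The gene models were spread over the genome. They made up between 10.7% of the expressed gene models on chromosome 4 and 13.4% on chromosome 7, and 1148 lay on the plus strand against 1111 on the minus strand. The exons of 111 overlapped an exon of another gene model, in 107 cases on the opposite strand. The sources used here do not say whether the counting used strand, so the reads of those 111 cannot be told apart from their neighbours' reads, and none of the gene models named below is among them.

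Both thresholds of the rule fell where gene models hardly differed. Those with exactly 30 entries (88 gene models) had a median of 11 merged exons and 25.6 CPM, and those with 29 entries (73 gene models), just outside, had 11 merged exons and 27.2 CPM. On level, Vigun02g011700 with a mean of 1.001 CPM and Vigun07g089000 with 1.003 CPM were just inside, while Vigun11g069500 with 0.9985 CPM and Vigun04g152900 with 0.9967 CPM were just outside; the last of these had 225 entries and 45 merged exons. A further 373 chromosomal gene models with 30 or more entries lay below 1 CPM. All 2259 passed the filter on low counts used for testing, which left 20284 genes.

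The 2259 gene models were transcribed at ordinary levels. Their median was 22.3 CPM, and 43.5 CPM in the 110, against 18.1 CPM in the others. Per kb of exonic length the order of the medians turned: 7.09 CPM per kb, and 7.25 in the 110, against 9.69 in the others. Of the 2259, 1929 had a mean of at least 5 CPM and 199 at least 100 CPM. The libraries held 10490354 to 17420944 counts with a median of 12689169, so 1 CPM stood for about 10 to 17 reads.

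The highest level per kb was that of Vigun04g188900, on chromosome 4 from 41297382 to 41301630 on the minus strand, with 76 entries in 10 merged exons, at 1883 CPM per kb. After scaling by TMM (a factor per library that evens out composition, used for all values by library from here on), it had 11326, 11220.3, 7934, 3034 and 9978 CPM in top R3 leaves and 939, 19.8, 681, 528 and 485 CPM in bottom R3 leaves. No top library was as low as any bottom library. The difference was 4.04 on the log2 scale (SE 0.73, adjusted p = 7.5e-05, edgeR's quasi-likelihood test with Benjamini-Hochberg adjustment over all 20284 genes, the test behind every adjusted p below). At R1 it averaged 6417 ± 1692 CPM in top leaves and 659.9 ± 468 CPM in bottom leaves (SD, n = 5 each), a log2 difference of 3.28 (edgeR, SE 0.71, adjusted p = 0.00069).

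Next in level came Vigun03g227100 (chromosome 3 from 37760497 to 37766064, minus strand, 32 entries, 16 merged exons) at 1614 CPM per kb and Vigun03g361500 (chromosome 3 from 56490124 to 56496144, minus strand, 47 entries, 10 merged exons) at 1583 CPM per kb. Both were higher in top than in bottom leaves at R3. Vigun03g227100 averaged 4610.2 ± 1244 CPM in top leaves, against 2009 ± 410 CPM in bottom leaves (SD, n = 5 each; log2 difference 1.2, edgeR adjusted p = 0.00022), and Vigun03g361500 averaged 5636 ± 2445 CPM in top leaves, against 798 ± 944 CPM in bottom leaves (SD, n = 5 each; log2 difference 2.82, edgeR adjusted p = 0.0044). In Vigun03g361500 the groups overlapped, since the bottom leaves ran up to 2402 CPM and the top leaves down to 2089 CPM. In bulk leaf RNA, fewer cells of a type and less RNA per cell cannot be told apart in this or any other comparison. Among the 110, the highest level per kb was that of Vigun01g107300 (chromosome 1 from 27917327 to 27950550, plus strand, 33 entries and as many exons), named after its values were seen, at 188.6 CPM per kb. It averaged 1291 ± 150.3 CPM in top R3 and 619 ± 58.5 CPM in bottom R3 leaves (SD, n = 5 each), and its log2 difference was 1.06 (edgeR, SE 0.18, adjusted p = 3.3e-05).

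The steadiest gene models varied little over all 30 libraries. Vigun06g011200 (chromosome 6 from 5059575 to 5093004, plus strand, 64 entries, 32 merged exons) had a mean of 140.9 CPM and a coefficient of variation of 7.12%. Vigun06g107700 (chromosome 6 from 23691998 to 23704633, plus strand, 63 entries, 16 merged exons) had 40.62 CPM and 7.47%, and Vigun09g202200 (chromosome 9 from 37653564 to 37664795, plus strand, 44 entries, 16 merged exons) had 45.11 CPM and 7.6%. None was called in any comparison, which follows in part from picking them for low variation over these same libraries. Their lowest adjusted p over all comparisons was 0.11, 0.37 and 0.052 in that order (edgeR), and no log2 difference went beyond −0.24.

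Across the canopy the share of the 2259 gene models that was called lay close to that of all genes, in both directions. Top against bottom leaves at R1, 904 of 2259 (40.0%) were called, 454 higher and 450 lower in top leaves, beside 43.0% of all genes tested (22.2% higher, 20.8% lower). At R3, 1102 (48.8%) were called, 514 higher and 588 lower, beside 51.9% of all genes (26.1% higher, 25.8% lower). The median absolute log2 difference was 0.37 at R1 and 0.42 at R3 in the 2259, and 0.50 and 0.59 over all genes tested. Of the 904, 234 were at least 2-fold higher and 114 at least 2-fold lower; of the 1102, 293 and 166 were. That is 10.4% and 5.05% of the 2259 at R1 and 13.0% and 7.35% at R3, beside 14.2% and 8.47% at R1 and 17.6% and 11.8% at R3 of all genes tested. These 2259 and the 110 within them were compared with the whole table as a description, and no test of the difference between lists was made.

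Of the 110, a smaller share was called in the same comparisons. At R1, 27 of 110 (24.5%) were called, 20 higher and 7 lower in top leaves, and at R3 42 (38.2%) were called, 18 higher and 24 lower. Their median absolute log2 difference was 0.23 at R1 and 0.29 at R3. With library size alone in place of TMM, the median of all genes moved by −0.15 at R1 and −0.31 at R3, and the calls split into 349 higher and 624 lower (R1) and 335 higher and 1042 lower (R3) for the 2259, and into 14 higher and 23 lower (R1) and 9 higher and 57 lower (R3) for the 110. The median of the 2259 was below 0 under both scalings at each stage, and that of the 110 was below 0 under both at R3; at R1 it was 0.04 under TMM and −0.10 with library size alone, which is 0.03 above the median of all genes in both.

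**Figure D3:**
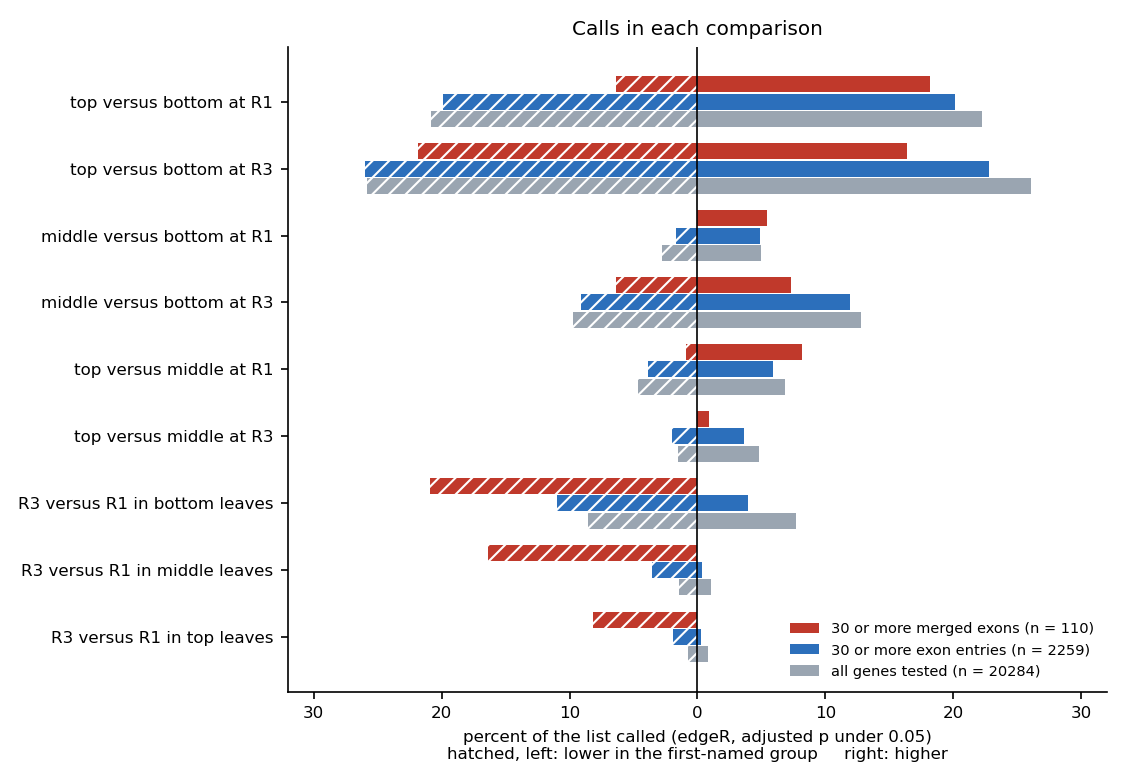
Percent of gene models called in each of the 9 comparisons of 2 groups (rows), higher in the first-named group to the right and lower (hatched) to the left, for the 110, all 2259 and all 20284 genes tested. For the 110, R3 against R1 has bars to the left only (20.9%, 16.4% and 8.18% in bottom, middle and top leaves), and in top against bottom leaves their bars are shorter than those of all genes (24.5% against 43.0% at R1).

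Individual gene models differed strongly between top and bottom leaves at R1. Gene models named by rule for a comparison, here and below, were picked among those called with ranges that do not overlap. Their call and lack of overlap in that comparison follow from this choice and are no added evidence. Vigun03g373300 (chromosome 3 from 57572807 to 57578956, plus strand, 39 entries, 14 merged exons) had 23.6, 34.0, 50, 43.8 and 44.2 CPM in top leaves and 0, 0.0619, 0.226, 0 and 0 CPM in bottom leaves, where 4 reads were counted in all. It was thus close to undetected at the bottom and present in every top library. The fitted log2 difference was 9.25 (edgeR, SE 1.5, adjusted p = 5.1e-05), a size that depends on the prior count. At R3 its levels were 8.94 ± 4.67 CPM in top leaves and 0.777 ± 1.67 CPM in bottom leaves (SD, n = 5 each; log2 difference 3.42, edgeR adjusted p = 0.0087).

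Vigun03g404200 (chromosome 3 from 61127941 to 61131815, minus strand, 56 entries, 14 merged exons) ran down the canopy in steps at R1. It had 41.8, 29.2, 55.4, 36.3 and 21.0 CPM in top leaves, 20.5, 16.1, 11.5, 4.37 and 3.07 CPM in middle leaves, and 0, 0.0619, 0, 0.231 and 0.105 CPM in bottom leaves. The 3 groups did not overlap, but the lowest top library (21.0 CPM) was only just above the highest middle library (20.5 CPM). The step from top to middle leaves is described by these values only. Top exceeded bottom by 8.66 (edgeR, SE 1.25, adjusted p = 1.7e-05) and middle exceeded bottom by 6.94 (edgeR, SE 1.22, adjusted p = 0.0027) on the log2 scale, the largest rise between middle and bottom leaves at R1 among the gene models eligible for naming. At R3 it was again higher in top leaves by 5.04 (edgeR, SE 0.96, adjusted p = 0.00014).

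In the opposite direction, Vigun06g170200 (chromosome 6 from 29178381 to 29186779, plus strand, 63 entries, 18 merged exons) had 0.174, 0, 0.0749, 0 and 0 CPM in top R1 leaves, 3 reads in all, and 45.3, 25.1, 12.7, 16.5 and 1.37 CPM in bottom R1 leaves, 1362 reads in all. Every bottom library was above every top library. The ratio of bottom to top was 371 (exact 95% interval 127 to 1800, for counting error only), and the difference was called (edgeR, adjusted p = 4.5e-05). Its ratio of middle to top leaves at R1 was 124 (exact 95% interval 42.2 to 606, counting error only; edgeR adjusted p = 0.0059), although the middle R1 libraries reached from 0 to 14.1 CPM and overlapped the top ones.

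Vigun10g144800 (chromosome 10 from 36218665 to 36222161, plus strand, 32 entries, 5 merged exons) was low in top leaves at both stages. At R1 it had 0.958, 0.094, 0.674, 0.223 and 1.34 CPM in top, 4.51, 3.34, 10.4, 3.58 and 8.45 CPM in middle, and 29, 93.7, 144, 10.4 and 16.5 CPM in bottom leaves. The top libraries lay apart from both lower positions, while the highest middle library reached the lowest bottom library. The log2 difference of top from bottom was −6.47 (edgeR, SE 1.05, adjusted p = 5.1e-05) and at R3, where top leaves averaged 3.0 ± 3.19 CPM and bottom leaves 88.4 ± 36.1 CPM (SD, n = 5 each), −4.89 (edgeR, SE 0.93, adjusted p = 0.00013). Its calls in the neighbouring pairs at R1 were fragile. Middle against bottom (log2 difference −3.28, edgeR adjusted p = 0.022) was lost without bottom replicate 2 or 3 or middle replicate 1, 2 or 4 (adjusted p 0.052 to 0.088), and top against middle (−3.19, edgeR adjusted p = 0.037) was lost without middle replicate 3 or 5 or top replicate 1, 2, 3 or 4 (adjusted p 0.066 to 0.088).

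At R3 the widest differences came with a wide spread inside the top leaves. Vigun09g235600 (chromosome 9 from 40621469 to 40624120, plus strand, 37 entries, 5 merged exons) had 42.3, 75.9, 1.74, 0.337 and 1.5 CPM in top leaves, against 0.0822, 0.0517, 0.127, 0 and 0 CPM in bottom leaves, with 4 reads in all at the bottom. Vigun11g037600 (chromosome 11 from 5155014 to 5158380, minus strand, 46 entries, 5 merged exons) had 31.1, 65.9, 3.18, 1.1 and 2.74 CPM in top leaves, against 0.0822, 0.258, 0.51, 0.305 and 0.141 CPM in bottom leaves. In both, top replicates 1 and 2 stood far above the other top libraries, and all top libraries were above all bottom libraries. The log2 differences were 8.69 (edgeR, SE 1.5, adjusted p = 4.4e-05) and 6.24 (edgeR, SE 1.04, adjusted p = 3e-05), and both gene models were also higher in top leaves at R1 (6.02 and 4.63, edgeR adjusted p = 0.00038 for each).

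Vigun04g103000 (chromosome 4 from 24011963 to 24018578, plus strand, 60 entries, 16 merged exons) had the largest fall in top against bottom R3 leaves among the gene models eligible for naming. It had 0.192, 0, 0, 0.59 and 0.0883 CPM in top leaves, against 70.0, 1.24, 2.17, 9.93 and 5.22 CPM in bottom leaves. The groups did not overlap, and bottom replicate 1 held most of the signal. The log2 difference was −6.53 (edgeR, SE 1.42, adjusted p = 0.0005).

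Among the 110, the gene models with the largest differences between top and bottom leaves, named after their values were seen, differed at both stages. Vigun09g047500 (chromosome 9 from 4527154 to 4553583, minus strand, 74 entries, 37 merged exons) had 83.9, 85.9, 71.8, 57.5 and 45.8 CPM in top leaves, against 16.6, 16.6, 8.9, 22.0 and 30.5 CPM in bottom R1 leaves, with no overlap. Its log2 difference was 1.86 at R1 (edgeR, SE 0.26, adjusted p = 1.1e-05) and 1.54 at R3 (edgeR adjusted p = 2.6e-05). Vigun07g225100 (chromosome 7 from 34708549 to 34729229, plus strand, 34 entries, each an exon) had 84.5, 152, 58.7, 46.8 and 70.2 CPM in top leaves, against 17.3, 13.7, 13.3, 12.1 and 13.1 CPM in bottom R3 leaves, again with no overlap. Its log2 difference was 2.57 at R3 (edgeR, SE 0.33, adjusted p = 1.2e-06) and 1.67 at R1 (edgeR adjusted p = 0.00024). Smaller rises were seen in Vigun06g078200 at R1 (chromosome 6 from 20955108 to 20967946, plus strand, 80 entries, 31 merged exons; 1.72, edgeR adjusted p = 4.2e-05) and in Vigun01g149600 at R3 (chromosome 1 from 33101004 to 33118310, plus strand, 39 entries, each an exon; 1.56, edgeR adjusted p = 5.9e-05).

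Vigun05g166500, the gene model with 1012 entries, was abundant and lower toward the top of the canopy. It had 444, 139, 539.9, 606 and 606 CPM in top R3 leaves, 1007 ± 89.5 CPM in middle R3 leaves (SD, n = 5), and 3839.6, 3393, 1838, 1417 and 2162 CPM in bottom R3 leaves. The 3 positions did not overlap at R3. Top was below bottom by a log2 difference of −2.44 at R3 (edgeR, SE 0.37, adjusted p = 9.7e-06) and −2.24 at R1 (edgeR, SE 0.37, adjusted p = 5.5e-05). Vigun01g114500 (chromosome 1 from 28971676 to 29037221, minus strand, 323 entries, 40 merged exons) had 30.6, 24.1, 30.9, 41.0 and 43.9 CPM in top leaves, against 126, 142, 94.1, 99.2 and 109 CPM in bottom R3 leaves, without overlap (log2 difference −1.74, edgeR, SE 0.2, adjusted p = 4e-07).

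**Figure D4:**
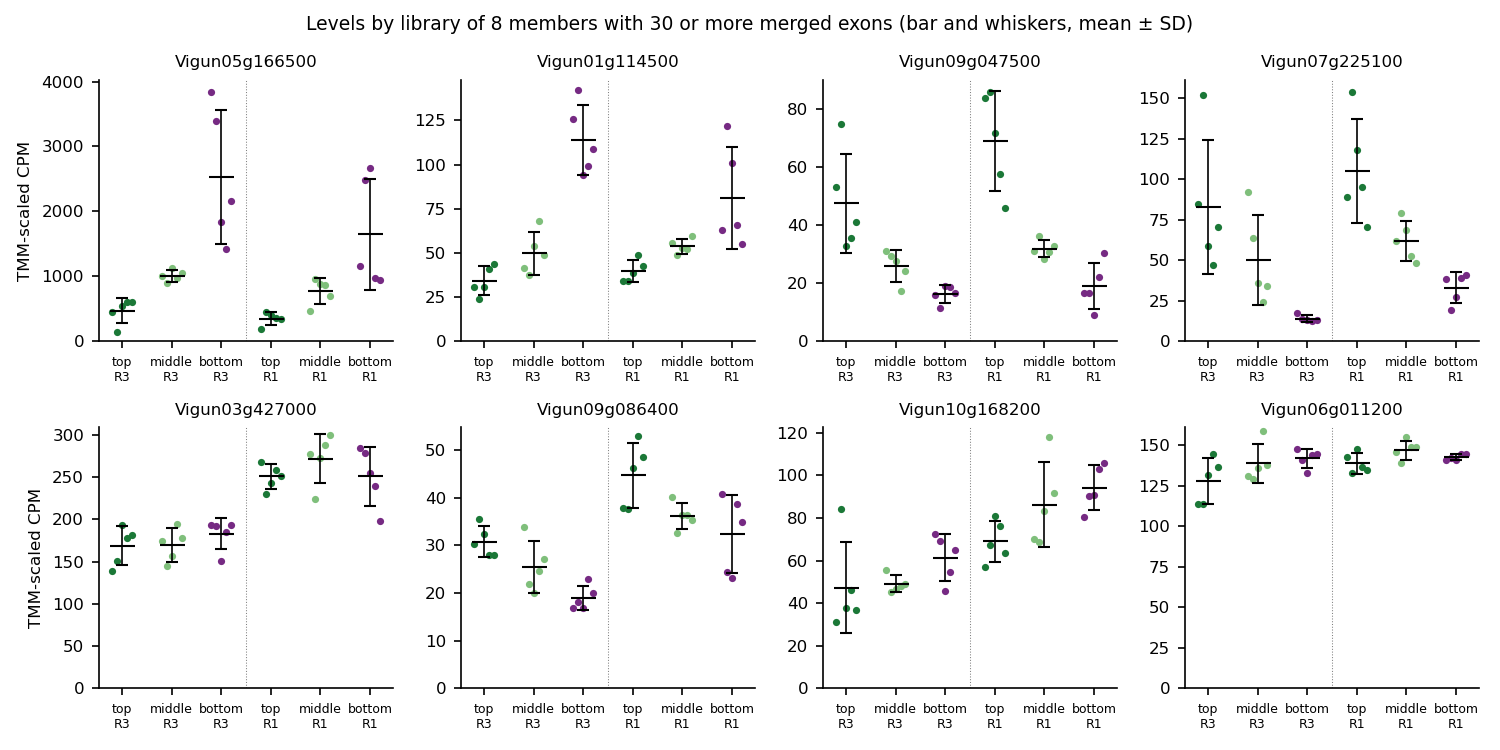
TMM-scaled CPM (y axis) of 8 gene models with 30 or more merged exons in each library (points) with the group mean and SD (bars), for top, middle and bottom leaves at R3 and then at R1. Vigun05g166500 and Vigun01g114500 increase toward the bottom, Vigun09g047500 and Vigun07g225100 toward the top, Vigun03g427000 is lower in R3 than in R1 libraries at each position, and Vigun06g011200 stays between 114 and 159 CPM in all 30 libraries.

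Middle against bottom leaves differed less, and more at R3 than at R1. At R3, 475 of the 2259 (21.0%) were called, 269 higher and 206 lower in middle leaves, beside 22.5% of all genes (12.8% higher, 9.75% lower). At R1, 148 (6.55%) were called, 110 higher and 38 lower, beside 7.78% of all genes (4.99% higher, 2.79% lower). Of the 110, 15 (8 higher, 7 lower) were called at R3 and 6 (all higher) at R1; lower calls at R1 were 0 in edgeR, with 6 at an unadjusted p under 0.05 and 3 in DESeq2. Comparisons at a stage share libraries: the bottom leaves here are those of the top comparison.

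At R3 the rise named by the rule was that of Vigun01g157600 (chromosome 1 from 33981742 to 33984702, plus strand, 32 entries, 4 merged exons), with 4.78, 7.43, 8.98, 4.58 and 2.97 CPM in middle leaves, against 0.0822, 0.31, 1.08, 0.916 and 0.353 CPM in bottom leaves. Every middle library was above every bottom library (log2 difference 3.34, edgeR, SE 0.62, adjusted p = 0.00045). The fall was that of Vigun06g195800 (chromosome 6 from 31156054 to 31163239, minus strand, 37 entries, 18 merged exons), with 0.659, 0.427, 0.927, 0.417 and 1.88 CPM in middle leaves, against 7.48, 3.31, 2.23, 5.24 and 8.75 CPM in bottom leaves. Here the groups came close to each other, and the call (−2.65, edgeR, SE 0.86, adjusted p = 0.027) was lost without bottom replicate 1 or 5 or middle replicate 1, 2, 3 or 4 (adjusted p 0.051 to 0.069).

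The counts of calls between middle and bottom leaves leaned on single libraries. At R1 the 148 became 53, 49 or 249 without bottom replicate 2, 3 or 4, and 85, 65, 92 or 87 without middle replicate 1, 2, 3 or 4. At R3 the 475 became 313 without middle replicate 1, and the 15 of the 110 became 9 without bottom replicate 1. With library size alone the split was 179 higher and 444 lower at R3 and 77 higher and 205 lower at R1 (5 and 20, and 4 and 5, for the 110), and DESeq2 gave 146 higher and 87 lower at R1 (8 and 3 for the 110).

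Top against middle leaves gave fewer calls at R3 than at R1. At R3, 127 of the 2259 (5.62%) were called, 82 higher and 45 lower in top leaves, beside 6.35% of all genes (4.79% higher, 1.56% lower). At R1, 221 (9.78%) were called, 133 higher and 88 lower, beside 11.5% of all genes (6.8% higher, 4.65% lower). Of the 110, 1 was called at R3 (higher) and 10 at R1 (9 higher, 1 lower); lower calls at R3 were 0 in edgeR, with 7 at an unadjusted p under 0.05 and 2 in DESeq2.

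At R3, Vigun04g182600 (chromosome 4 from 40680574 to 40684905, minus strand, 89 entries, 9 merged exons) had 39.3, 64.6, 41.0, 44.1 and 30.7 CPM in top leaves, against 6.43, 5.9, 9.7, 7.77 and 6.23 CPM in middle leaves. The top libraries were several times above every middle library (log2 difference 2.6, edgeR, SE 0.33, adjusted p = 0.00037). Vigun05g281200 (chromosome 5 from 47039155 to 47047970, minus strand, 198 entries, 22 merged exons) had 4.98, 0.785, 5.69, 3.87 and 8.04 CPM in top leaves, against 23.5, 11.8, 15.9, 22.4 and 16.2 CPM in middle leaves. The groups did not overlap, and the call (−1.94, edgeR, SE 0.48, adjusted p = 0.021) was lost when only these groups were fitted (adjusted p = 0.12) and without middle replicate 4 (0.067) or top replicate 2 (0.077). At R1, Vigun07g122400 (chromosome 7 from 22573926 to 22580120, minus strand, 39 entries, 19 merged exons) had 21.8, 17.2, 9.51, 6.46 and 1.07 CPM in top leaves, against 0.15, 0.572, 0.237, 0.159 and 0 CPM in middle leaves, without overlap (log2 difference 5.63, edgeR, SE 1.11, adjusted p = 0.0056).

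These counts too moved with single libraries. At R3 the 127 became 207, 71, 70, 7 or 22 without middle replicate 1, 2, 3, 4 or 5, and 52 or 6 without top replicate 1 or 2. At R1 the 221 became 118, 139 or 116 without middle replicate 3, 4 or 5, and 103, 106 or 143 without top replicate 1, 2 or 3. With library size alone the split was 64 higher and 82 lower at R3 and 146 higher and 57 lower at R1, and of the 110 at R3 it was 1 and 2 (2 and 2 in DESeq2).

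The same gene models were called in both stages more often than not between top and bottom leaves. The comparisons at R3 and at R1 share no library. Higher in top leaves at both stages were 349, which is 67.9% of those higher at R3 and 76.9% of those higher at R1, and lower at both were 343 (58.3% at R3, 76.2% at R1), while 3 were called in opposite directions. Over all genes tested the shares were 67.9% and 79.8% for the higher and 59.8% and 74.1% for the lower. Among the 110, 14 were higher at both stages (77.8% at R3, 70.0% at R1) and 6 lower (25% at R3, 85.7% at R1). Across the 2259 the log2 differences of both stages had a Pearson correlation of 0.81 for top against bottom, 0.79 for middle against bottom and 0.75 for top against middle leaves, which describes gene models that share libraries within each comparison.

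With stage, the calls among the gene models with 30 or more exon entries were mostly in the lower direction. R3 against R1 in bottom leaves, 339 (15.0%) were called, 90 higher and 249 lower at R3, beside 16.2% of all genes (7.71% higher, 8.53% lower). In middle leaves 89 (3.94%) were called, 8 higher and 81 lower, beside 2.48% (1.06% higher, 1.42% lower). In top leaves 50 (2.21%) were called, 7 higher and 43 lower, beside 1.56% (0.799% higher, 0.759% lower). The median log2 difference was −0.10, −0.12 and −0.12 in bottom, middle and top leaves, where that of all genes was 0.00, −0.01 and 0.00, and 62.3%, 64.9% and 67.1% of the 2259 were below 0 (50.2%, 51.1% and 50.1% of all genes).

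Among the 110 the calls ran in a single direction. In bottom leaves 23 (20.9%) were lower at R3, in middle leaves 18 (16.4%) and in top leaves 9 (8.18%). At none of the positions was any of the 110 called higher by edgeR. Of all genes tested, 7.71%, 1.06% and 0.799% were called higher and 8.53%, 1.42% and 0.759% lower, in the same order. In middle and top leaves the lack of higher calls is therefore close to the share of all genes. At an unadjusted p under 0.05, 2, 1 and 0 were higher in bottom, middle and top leaves, and DESeq2 called 1, 0 and 0 higher. Their median log2 difference was −0.23, −0.32 and −0.37, and 84.5%, 87.3% and 95.5% of them were below 0. Below 0 at all 3 positions were 85 of the 110, against 1024 of the 2259 and 5747 of the 20284 genes tested, and above 0 at all 3 positions were 1, 358 and 5365. The 3 comparisons share no library. At every position, though, R3 leaves were sampled at 6.5 and R1 leaves at 5.5 weeks after planting. Stage therefore cannot be told apart from sampling time or from any handling that differed between the samplings.

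The same was seen library by library. For each gene model the log2 CPM was centred on its mean over the 30 libraries, and the median over the 110 was taken in each library. It was −0.24, −0.02, −0.24, −0.23 and −0.21 in top R3 leaves, −0.12, −0.30, −0.29, −0.03 and −0.19 in middle R3 leaves, and −0.07, −0.03, −0.27, −0.06 and −0.10 in bottom R3 leaves. At R1 it was 0.16, 0.13, 0.21, 0.24 and 0.14 in top leaves, 0.22, 0.03, 0.18, 0.21 and 0.23 in middle leaves, and 0.15, 0.21, 0.09, 0.15 and 0.06 in bottom leaves. All 15 R3 libraries lay below all 15 R1 libraries. For the 2259 together, 12 of the 15 R3 libraries lay below every R1 library, and for the 16337 others 1 did. Outside the 2259, 10 did for the 245 gene models with over 5 kb of exonic sequence. For the 2054 of up to 1 kb, 0 did. The shares of all counts on the 110 did not separate the stages in this way. Those of bottom R3 leaves (0.87% to 1.26%) overlapped those of bottom R1 leaves (0.947% to 1.32%) and reached above every top R1 and middle R1 library. Single abundant gene models weigh on these shares. Vigun05g166500, among the 110, held 28017, 62904 and 199682 counts in top, middle and bottom R3 leaves. At R1 it held 20877, 46397 and 119858 in the same order. Shares without it were not computed. The 110 took 0.679% ± 0.0279 of the counts in top R3 leaves, 0.799% ± 0.085 in middle R3, 1.05% ± 0.147 in bottom R3, 0.916% ± 0.0539 in top R1, 0.946% ± 0.0705 in middle R1 and 1.11% ± 0.162 in bottom R1 leaves (SD, n = 5 each). The shares of the 2259 were 10.0% ± 0.5 in top R3, 10.5% ± 0.371 in middle R3, 10.7% ± 0.666 in bottom R3, 11.0% ± 0.692 in top R1, 11.2% ± 0.459 in middle R1 and 11.6% ± 0.587 in bottom R1 leaves (SD, n = 5 each).

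The shift with stage was graded by the number of merged exons, except between 1 and 2 to 9 merged exons in middle leaves. In top leaves the median log2 difference of R3 from R1 was −0.37 in the 110, −0.21 in the 514 gene models with 20 to 29 merged exons, −0.07 in the 3494 with 10 to 19, 0.04 in the 12284 with 2 to 9 and 0.07 in the 2187 with 1, whatever their number of entries. In middle leaves it was −0.32, −0.21, −0.07, 0.03 and 0.02 in the same order of classes, and in bottom leaves −0.23, −0.11, −0.05, 0.02 and 0.11. Gene models with 20 to 29 merged exons were called lower at R3 in 13.4%, 6.61% and 3.7% of cases in bottom, middle and top leaves.

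It was graded by length as well, and length goes with the number of exons. Of all expressed chromosomal gene models, the 263 with over 6 kb of exonic sequence were called lower at R3 in 26.2%, 22.1% and 14.4% of cases in bottom, middle and top leaves, and higher in 0.38%, 0% and 0%. Within the 2259, the 279 over 5 kb had medians of −0.24, −0.31 and −0.31 in bottom, middle and top leaves, and the 1048 of up to 3 kb had −0.05, −0.04 and −0.05. Gene models over 5 kb with fewer than 30 entries (245, none of them among the 2259) had −0.21, −0.28 and −0.25. Those of up to 1 kb outside the 2259 (2054) had 0.07, 0.11 and 0.15. Within the 110, the 35 of 3 to 5 kb had −0.16, −0.26 and −0.35, and the 74 over 5 kb −0.28, −0.37 and −0.40. Of the 2259, the 39 over 5 kb with fewer than 10 merged exons had −0.14, −0.27 and −0.20. Of all expressed chromosomal gene models, the 89 over 5 kb with 20 to 29 merged exons had −0.29, −0.36 and −0.37. These 89 were called lower at R3 in 30.3%, 23.6% and 13.5% of cases and higher in 1.12%, 0% and 0%. The 74 were called lower in 21.6%, 23.0% and 10.8% of cases and higher in none. The parts of exon number and exonic length in the result were not tested.

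**Figure D5:**
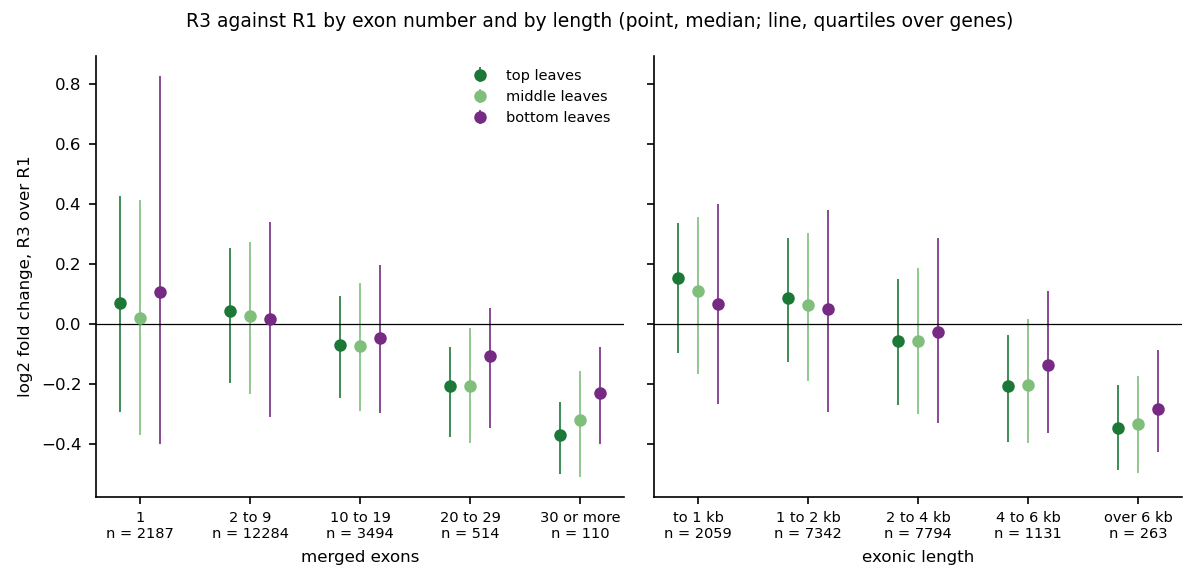
Median log2 fold change of R3 over R1 (points) with the quartiles (lines) by class of merged exons and by class of exonic length, for expressed chromosomal gene models in top, middle and bottom leaves. From 2 to 9 merged exons upward the medians decrease in each position, down to −0.37 in top leaves for 30 or more, and they decrease with length, down to −0.35 for over 6 kb in top leaves.

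The counts at each position leaned on single libraries, while the sign of the median did not. For the 110, the 23 in bottom leaves became 10, 10, 13, 10 or 10 without R1 replicate 1 or 4 or R3 replicate 3, 4 or 5. The 18 in middle leaves became 5, 6 or 3 without R1 replicate 1, 3 or 4, and 29, 5, 3 or 5 without R3 replicate 1, 2, 3 or 5. The 9 in top leaves became 3, 4, 3 or 2 without R1 replicate 1, 2, 3 or 4, and 4, 35, 5, 4 or 3 without R3 replicate 1, 2, 3, 4 or 5. Without bottom R1 replicate 2 or bottom R3 replicate 3, 1 of the 110 was called higher in bottom leaves. Other settings moved the counts as well. With only the groups compared in the fit, 6, 14 and 0 were called in bottom, middle and top leaves (edgeR; 40, 60 and 48 were lower at an unadjusted p under 0.05). Library size alone gave 22, 7 and 45, DESeq2 30, 34 and 24, and no filter on low counts 20, 10 and 4. Without any 1 library the median stayed between −0.28 and −0.20 in bottom, between −0.36 and −0.28 in middle and between −0.42 and −0.34 in top leaves.

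For the 2259, the 339 in bottom leaves became 188 without R1 replicate 1 or 4, and 187 or 205 without R3 replicate 4 or 5. The 89 in middle leaves became 23, 25 or 13 without R1 replicate 1, 3 or 4, and 223, 31, 13, 46 or 28 without R3 replicate 1, 2, 3, 4 or 5. The 50 in top leaves became 32, 27 or 15 without R1 replicate 1, 3 or 4, and 226, 27 or 27 without R3 replicate 2, 4 or 5. With library size alone the split was 45 higher and 236 lower in bottom and 6 higher and 218 lower in top leaves, where the median of all genes moved by −0.18; relative to all genes the median of the 110 in top leaves was −0.38 under that scaling and −0.37 under TMM.

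Lower at R3 at all 3 positions were 15 of the 2259 (57 of all genes tested), and 2 of the 15 belonged to the 110. Vigun03g427000 (chromosome 3 from 63211603 to 63233443, plus strand, 74 entries, 37 merged exons) had 139, 150.4, 193, 178 and 182 CPM in top R3 and 268, 230.3, 243, 259 and 252 CPM in top R1 leaves. In middle leaves it had 175, 145, 157, 195 and 178 CPM at R3 and 277, 224, 273, 288 and 299.7 CPM at R1, and in bottom leaves 193, 192, 151, 185 and 193 CPM at R3 and 285, 279, 255, 239.9 and 198 CPM at R1. At no position did the stages overlap. The log2 differences were −0.57 in top (edgeR, SE 0.12, adjusted p = 0.012), −0.68 in middle (edgeR, SE 0.12, adjusted p = 0.0066) and −0.46 in bottom leaves (edgeR, SE 0.12, adjusted p = 0.01). With only the groups compared in the fit, the calls in top (adjusted p = 0.088) and bottom leaves (adjusted p = 0.063) were lost.

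Vigun09g202800 (chromosome 9 from 37723748 to 37760327, plus strand, 151 entries, 39 merged exons) showed the same. It had 49.0, 55.0, 59.1, 60.5 and 56.6 CPM in top R3 and 72.3, 81.9, 83.7, 86.0 and 68.3 CPM in top R1 leaves. It had 63.4, 53.0, 50.5, 65.2 and 60.9 CPM in middle R3 and 83.5, 79.1, 93.8, 82.6 and 82.9 CPM in middle R1 leaves, and 71.5, 73.6, 51.0, 59.7 and 58.5 CPM in bottom R3 and 95.6, 81.9, 83.6, 84.4 and 76.1 CPM in bottom R1 leaves. The stages did not overlap at any position. The log2 differences were −0.49, −0.53 and −0.42 in top, middle and bottom leaves (edgeR adjusted p = 0.014, 0.01 and 0.0069). The top call was lost without top R1 replicate 4 (0.057) and with only the groups compared in the fit (0.097), and the bottom call was lost with only the groups compared (0.059).

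The gene models with the most exons were lower at R3 too, though not all differences passed the test. Vigun09g086400, with 78 exons, had 16.9, 18.1, 16.9, 22.9 and 20 CPM in bottom R3 and 40.9, 24.5, 23.2, 38.8 and 35.0 CPM in bottom R1 leaves. The highest R3 library was just below the lowest R1 library (log2 difference −0.78, edgeR, SE 0.15, adjusted p = 0.002). In middle and top leaves the differences were −0.51 (edgeR adjusted p = 0.065) and −0.54 (edgeR adjusted p = 0.072), and it was higher in top than in bottom R3 leaves by 0.7 (edgeR adjusted p = 0.00055).

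Vigun10g168200, with 77 exons, had 55.6, 45.3, 46.7, 48.2 and 49.0 CPM in middle R3 and 70.3, 68.7, 83.2, 118 and 91.6 CPM in middle R1 leaves, without overlap. The difference was −0.82 (edgeR, SE 0.2, adjusted p = 0.029), and −0.62 in bottom leaves (edgeR adjusted p = 0.033), where 61.3 ± 11.1 CPM at R3 stood against 94.2 ± 10.5 CPM at R1 (SD, n = 5 each). In top leaves the difference of −0.54 did not pass (edgeR adjusted p = 0.16). The middle call was lost without R1 replicate 3 or 4 or R3 replicate 2, 3, 4 or 5 (adjusted p 0.057 to 0.1), and the bottom call without R1 replicate 4 or 5 or R3 replicate 3, 4 or 5 (0.053 to 0.083).

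Vigun02g159400 had 70.6, 60.0, 99.3, 115 and 104 CPM in top R3 and 126, 116, 144, 162 and 164 CPM in top R1 leaves, with the highest R3 library just below the lowest R1 library. Its difference was −0.66 in top leaves (edgeR, SE 0.17, adjusted p = 0.044), and −0.48 and −0.44 in middle and bottom leaves (edgeR adjusted p = 0.11 and 0.075). The top call was lost without R1 replicate 1, 3, 4 or 5 or R3 replicate 1, 3 or 5 (adjusted p 0.062 to 0.13), with only the groups compared (0.19) and with no filter on low counts (0.069). Vigun03g409600 differed by −0.66, −0.7 and −0.62 in top, middle and bottom leaves (edgeR adjusted p = 0.061, 0.039 and 0.022). Its middle call was lost without R1 replicate 1, 3, 4 or 5 or R3 replicate 2, 3, 4 or 5 (0.053 to 0.11), with library size alone (0.052) and with no filter (0.057). Its bottom call was lost without R1 replicate 1 or 4 or R3 replicate 3, 4 or 5 (0.05 to 0.061, the lowest just above the threshold) and with only the groups compared (0.053).

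The fall with stage that the rule named in bottom leaves was that of Vigun06g170200, which had 0.411, 0.93, 0, 0.204 and 0.141 CPM at R3 and 45.3, 25.1, 12.7, 16.5 and 1.37 CPM at R1. Every R3 library was below every R1 library (log2 difference −5.83, edgeR, SE 1.08, adjusted p = 0.0013). In middle leaves it was that of Vigun04g182600, with 6.43, 5.9, 9.7, 7.77 and 6.23 CPM at R3 and 19.9, 12.5, 15.7, 22.2 and 10.7 CPM at R1. The groups did not overlap, and the call (−1.17, edgeR, SE 0.32, adjusted p = 0.047) was lost without middle R1 replicate 1, 3 or 4 or R3 replicate 2, 3, 4 or 5 (0.079 to 0.13), with library size alone (0.056) and with no filter on low counts (0.062). In top leaves it was that of Vigun07g130300 (chromosome 7 from 23970355 to 23977124, plus strand, 76 entries, 13 merged exons), with 7.92, 10.1, 6.08, 5.14 and 5.83 CPM at R3 and 16.7, 11.0, 13.1, 13.1 and 15.7 CPM at R1. The difference of −0.99 (edgeR, SE 0.23, adjusted p = 0.024) was lost as a call without top R1 replicate 1 or 4 or R3 replicate 3, 4 or 5 (0.057 to 0.078) and with only the groups compared (0.085).

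Rises with stage were fewer than falls at each position. Called higher at R3 were 90 (3.98%), 8 (0.354%) and 7 (0.31%) of the 2259 in bottom, middle and top leaves. Of all genes tested, 7.71%, 1.06% and 0.799% were. In bottom leaves Vigun05g106100 (chromosome 5 from 10733181 to 10738247, minus strand, 62 entries, 2 merged exons) had 58.9, 5.99, 5.35, 18.6 and 13.0 CPM at R3 and 1.91, 4.83, 4.98, 4.77 and 3.52 CPM at R1. All R3 libraries were above all R1 libraries, but replicate 1 held most of the rise. The difference of 2.34 (edgeR, SE 0.66, adjusted p = 0.019) became 1.42 (0.11) without bottom R3 replicate 1, and the call was also lost without bottom R1 replicate 1 (0.058) and with only the groups compared (0.057).

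In middle leaves Vigun06g121200 (chromosome 6 from 24870202 to 24874317, plus strand, 30 entries, 10 merged exons) had 27.3, 20.5, 26.5, 27.6 and 29 CPM at R3 and 14.5, 17.9, 17.2, 13.0 and 12.4 CPM at R1, without overlap. It was 1 of 2 gene models called higher at all 3 positions. Its differences were 0.79 in top, 0.8 in middle and 0.53 in bottom leaves (edgeR adjusted p = 0.015, 0.016 and 0.034). The middle call was lost without R1 replicate 4 (0.067), the top call without R1 replicate 4 or R3 replicate 5 (0.057 and 0.066), and the bottom call without R1 replicate 1, 2 or 4 or R3 replicate 3 or 4 (0.057 to 0.11). With only the groups compared the top and bottom calls were lost (0.097 and 0.077), and with library size alone the bottom call (0.052).

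In top leaves Vigun04g173800 (chromosome 4 from 39817032 to 39823087, plus strand, 30 entries, 8 merged exons) had 50.7, 175, 57.5, 52.5 and 82.1 CPM at R3 and 20.2, 17.6, 26.7, 19.2 and 18.7 CPM at R1. Each R3 library was well above each R1 library. The difference was 2.03 (edgeR, SE 0.44, adjusted p = 0.016), and the call was lost without top R1 replicate 4 (0.057) and with only the groups compared (0.052).

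The calls with stage were shared in part between positions. Of the gene models lower at R3, 54 were called in both middle and bottom leaves (66.7% of those in middle, 21.7% of those in bottom leaves), 17 in both top and bottom leaves (39.5% and 6.83%) and 19 in both top and middle leaves (44.2% and 23.5%). Over all genes tested, the shares were 69.1% of middle and 11.5% of bottom leaves, 50% of top and 4.45% of bottom leaves, and 44.2% of top and 23.6% of middle leaves. Across the 2259, the log2 differences had a Pearson correlation of 0.71 between middle and bottom leaves, 0.43 between top and middle leaves and 0.18 between top and bottom leaves.

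Whether the difference between top and bottom leaves itself changed with stage was tested as an interaction. None of the 2259 passed, beside 0.0% of all genes tested (0 of 20284 by edgeR's quasi-likelihood test). At an unadjusted p under 0.05 were 279 of the 2259, 137 with a positive and 142 with a negative interaction term (the log2 difference of top from bottom at R3 minus that at R1), and 3089 of all genes. DESeq2 called 37 of the 2259, 19 and 18 in the same order, and 3 of the 110. In edgeR, 28 of the 2259 passed without bottom R1 replicate 2, 3 without bottom R3 replicate 2, 1 without top R3 replicate 1 and 3 without top R3 replicate 2.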

How the data were processed

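Leaf polyA RNA was extracted with a MagMAX kit and made into libraries with a Kapa HyperPrep mRNA kit, per the labels' protocols. The authors deposited raw counts per gene, which were used throughout; HISAT2, featureCounts and DESeq2 are named, without roles, per the submitters' processing notes. The sources used here give neither the genome build nor the strand setting. Every one of the 30 value columns matched 1 sample by its label.

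Exon entries, merged exons and exonic length were computed from the table's position fields. Gene identifiers were printed without the annotation suffix, version 1.2, and 0 matched the RefSeq table used. Counts were filtered by group (filterByExpr), scaled by TMM and fitted with edgeR 4.0.16 in R 4.3.3 (quasi-likelihood, 1 fit of all 6 groups with 24 residual degrees of freedom). Calls needed an adjusted p (Benjamini-Hochberg) under 0.05, and the code was tested on simulated data. Standard errors are the absolute log2 difference over the square root of F. Median values by library used log2 CPM with a prior count of 2. The libraries of a group differed beyond sampling noise in all 60 pairs. Alternatives covered scaling, filter, DESeq2 1.42.0, samples in the fit, replicate block, each library left out, at least 5 CPM, no overlapping gene models and 30 or more merged exons.

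The gene models and lists were chosen with earlier results of these data known. Named gene models overlap no other and were taken by rule: for top against bottom leaves the 2 largest and 2 smallest log2 differences per stage, and 1 of each for other comparisons, among called gene models with at least 5 CPM in the higher group and ranges that do not overlap; then the 3 with the most merged exons, the 3 highest per kb and the 3 with the lowest coefficient of variation at 10 CPM or more. Those said to be named after their values were seen, Vigun03g409600, Vigun03g427000 and Vigun09g202800 were added. Same-numbered replicates deviated together in middle against bottom leaves at R1 (correlation 0.185 to 0.524 in the 5 pairs). There alone they were taken as paired, from the data and not from a label. The main fit held no replicate block, so the results given above for that comparison are unpaired. The block was run as an alternative only.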

Additional observations from a re-analysis of the deposited data

Results flagged for a closer look

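In 27 of 222 groups of 5 libraries examined, 1 library stood apart from the other 4 by Dixon's criterion (gap over range above 0.71). Chance gives this in about 1 of 20 groups of independent, normally distributed values. The groups here share libraries and some hold very low values, so the 27 cannot be set against that rate. All values are TMM-scaled CPM except the share at the end, and no explanation was tested.

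Top R3 replicate 2 was the highest of its group for Vigun03g404200 (53.7), Vigun04g173800 (175), Vigun10g168200 (84.4) and Vigun06g078200 (27.0). Top R3 replicate 1 was the highest for Vigun05g106100 (11.2). Middle R3 replicate 4 was the highest for Vigun04g103000 (4.51) and Vigun02g159400 (143), and middle R3 replicate 2 the lowest for Vigun06g121200 (20.5). Bottom R3 replicate 4 was the highest for Vigun03g373300 (3.77), Vigun03g404200 (3.05) and Vigun06g078200 (10.8). Bottom R3 replicate 1 was the highest for Vigun04g103000 (70.0) and Vigun05g106100 (58.9), and bottom R3 replicate 2 for Vigun10g144800 (152). Bottom R3 replicate 3 was the lowest for Vigun09g202200 (40.4) and Vigun03g427000 (151), and the highest for Vigun06g107700 (44.9).

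At R1, top replicate 5 was the highest for Vigun04g103000 (1.97), Vigun06g195800 (8.14) and Vigun05g106100 (4.38), top replicate 2 for Vigun11g037600 (68.0) and top replicate 3 for Vigun04g173800 (26.7). Middle replicate 5 was the highest for Vigun04g103000 (0.938) and Vigun06g195800 (1.45). Bottom replicate 3 was the highest for Vigun03g373300 (0.226) and bottom replicate 4 for Vigun01g157600 (7.15). The share of all counts on the 2259 gene models was lowest of its group in top R1 replicate 2, at 9.83%.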

How the results depend on the processing

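Counting 30 or more merged exons in place of entries left 110 gene models, with 27, 42, 6, 15, 10 and 1 calls in top against bottom, middle against bottom and top against middle leaves (R1 then R3 in each) and 23, 18 and 9 in R3 against R1 (bottom, middle, top). Their medians were 0.0418 in top against bottom at R1, −0.2308, −0.3193 and −0.3713 with stage and −0.1413 for the interaction, and their shares of counts were 0.679%, 0.799%, 1.05%, 0.916%, 0.946% and 1.11% in the order of groups used in the report. Library size alone gave 282 calls in middle against bottom at R1, 49 with stage in middle and 224 in top leaves, with medians of −0.1778 and −0.3748 (top against bottom, R1 and R3), −0.2059 and −0.2354 (middle against bottom), −0.1534 (top against middle, R3), −0.2943 (stage, top) and −0.1760 (interaction), following the shift of all genes. DESeq2 gave 233 (middle against bottom, R1), 209 (top against middle, R3), 199 and 114 (stage, middle and top) and 37 (interaction). With only the groups compared in the fit, and so fewer samples, calls were 77 (middle against bottom, R1), 439 and 4 (top against middle, R1 and R3) and 118, 45 and 2 (stage, bottom, middle and top). Without a filter on low counts the stage count in middle leaves was 50, the size factors of DESeq2 in edgeR gave 1 for the interaction, at least 5 CPM gave a median of −0.0869 in top against bottom at R1, and leaving out overlapping gene models gave a share of 10.1% in middle R3. The cause of these moves was not tested unless stated.

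With the replicate number as a block the paired comparison, middle against bottom at R1, gave 155 calls (162 with the block within stage), and the block within stage gave 2 for the interaction; no other count moved by over 1.5 times under a block. With the replicate block the call of Vigun05g106100 with stage in bottom leaves was lost (log2 difference 1.91, edgeR adjusted p = 0.057). In the remaining comparisons replicates were not taken as paired, and the labels do not say whether same-numbered replicates shared plants. Correlations of same-numbered replicates were mixed there. They ran from −0.0188 to 0.468 in top against middle leaves at R1 and from 0.0481 to 0.457 in middle against bottom leaves at R3. With stage they ran from −0.456 to 0.176 in bottom leaves and from 0.012 to 0.533 in top leaves. Leaving out 1 library gave 738 to 937 and 1011 to 1108 calls in top against bottom at R1 and R3, 49 to 249 and 313 to 570 in middle against bottom, 103 to 298 and 6 to 207 in top against middle, 187 to 441, 13 to 223 and 15 to 226 with stage in bottom, middle and top leaves, and 0 to 28 for the interaction. No named gene model changed sign under any setting run. Counting each gene model, comparison and setting separately, calls were lost 53 times under settings other than a library left out. With a library left out they were lost 179 times.

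Counts of 3 or fewer reads, as for Vigun06g170200 in top R1 leaves, limit the size of a fold at this depth, and intervals cover counting error only.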
